A study of Mus musculus with 6 samples.

Results

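Decidual differentiation markers are genes switched on when the fibroblast-like cells of the uterine stroma turn into the decidua, the tissue that surrounds and feeds the implanting embryo. The 9 genes described here (Cebpa, Cebpb, Cebpd, Foxo1, Alpl, Dio2, Dio3, Prl8a2 and Prl3c1) were chosen by name, out of 21900 genes with a distinct symbol in the deposited tables, and all 9 were found there. They were read in whole uteri of pregnant mice on gestational day 4, with the day of the vaginal plug as day 1, from females of 6 to 8 weeks mated with fertile males. By their labels, 3 libraries were Mettl3 f/f and 3 were Mettl3 d/d; the product of Mettl3 is the catalytic part of the complex that places N6-methyladenosine on RNA. The sources used here give neither the Cre driver, the deleted exons and the strain nor whether each library is a separate animal. A p-value here therefore sets a difference between the groups only against the spread of these libraries, which may not be that of animals. Values were taken as FPKM, fragments scaled to gene length and library size, and are listed in the order of replicates 1, 2 and 3. The headers name no unit, and Gapdh was listed at only 2.63 to 9.48. Levels of different genes are therefore compared below only as listed.

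In the mouse, decidual change follows the attachment of the embryo and needs progesterone acting on a stroma primed by estrogen. The C/EBP genes and Foxo1 encode transcription factors of this programme, and alkaline phosphatase activity, from Alpl, is a classical histochemical sign of it. Dio2 encodes an enzyme that activates thyroid hormone and Dio3 an enzyme that inactivates it, while Prl8a2 and Prl3c1 encode secreted proteins of the prolactin family. Day 4 is around the onset of receptivity, before the decidua has formed.

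Facts that bear on all members come first. Each library had values above 0 for 15965 to 16345 genes, and its absolute depth is unknown, with relative depths estimated at 0.935 to 1.01 of f/f replicate 1. Spearman correlations over genes were 0.984 to 0.988 among the f/f libraries and 0.951 to 0.965 among the d/d libraries, so the d/d libraries were the more varied group. For Mettl3 itself the f/f libraries gave 30.3, 29.8 and 26.3 FPKM, and the d/d libraries 42.9, 30.1 and 46.5 (log2 fold change 0.43, limma adjusted p = 0.202). Its mean was not lower for d/d, and since the deleted part is not known here, this value over the whole gene does not check the labels. Mettl3 also shares 933 bases of exon with Tox4 on the opposite strand, and use of strand is not stated. All directions below rest on the labels.

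Of the 9 genes, 1 rose in the d/d uteri, 0 fell, 5 did not pass the test and 3 could not be tested. The gene that rose was Cebpb, to a mean 4.37 times that of the f/f libraries. The uterus was sequenced whole, so a change in the number of cells of a type and a change in RNA per cell cannot be told apart. All 6 tested members had a positive log2 fold change, with a median of 0.64 against 0.02 over all genes tested. The test was limma on log2(FPKM + 1) over 12979 genes at 1 FPKM or more in at least 3 libraries, with a Benjamini-Hochberg adjusted p under 0.05 as the threshold. In this comparison 7.3% of all genes tested were called, 3.49% higher and 3.81% lower, and 54.1% had the higher mean FPKM in d/d libraries, as all 6 tested members had. The 6 tested members were at 1 FPKM or more in all 6 libraries, so none entered the test through only the group in which it was high. Dio3 was under the minimum in 5 libraries, and Prl8a2 and Prl3c1 were listed at 0 in all 6.

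**Figure D1:**
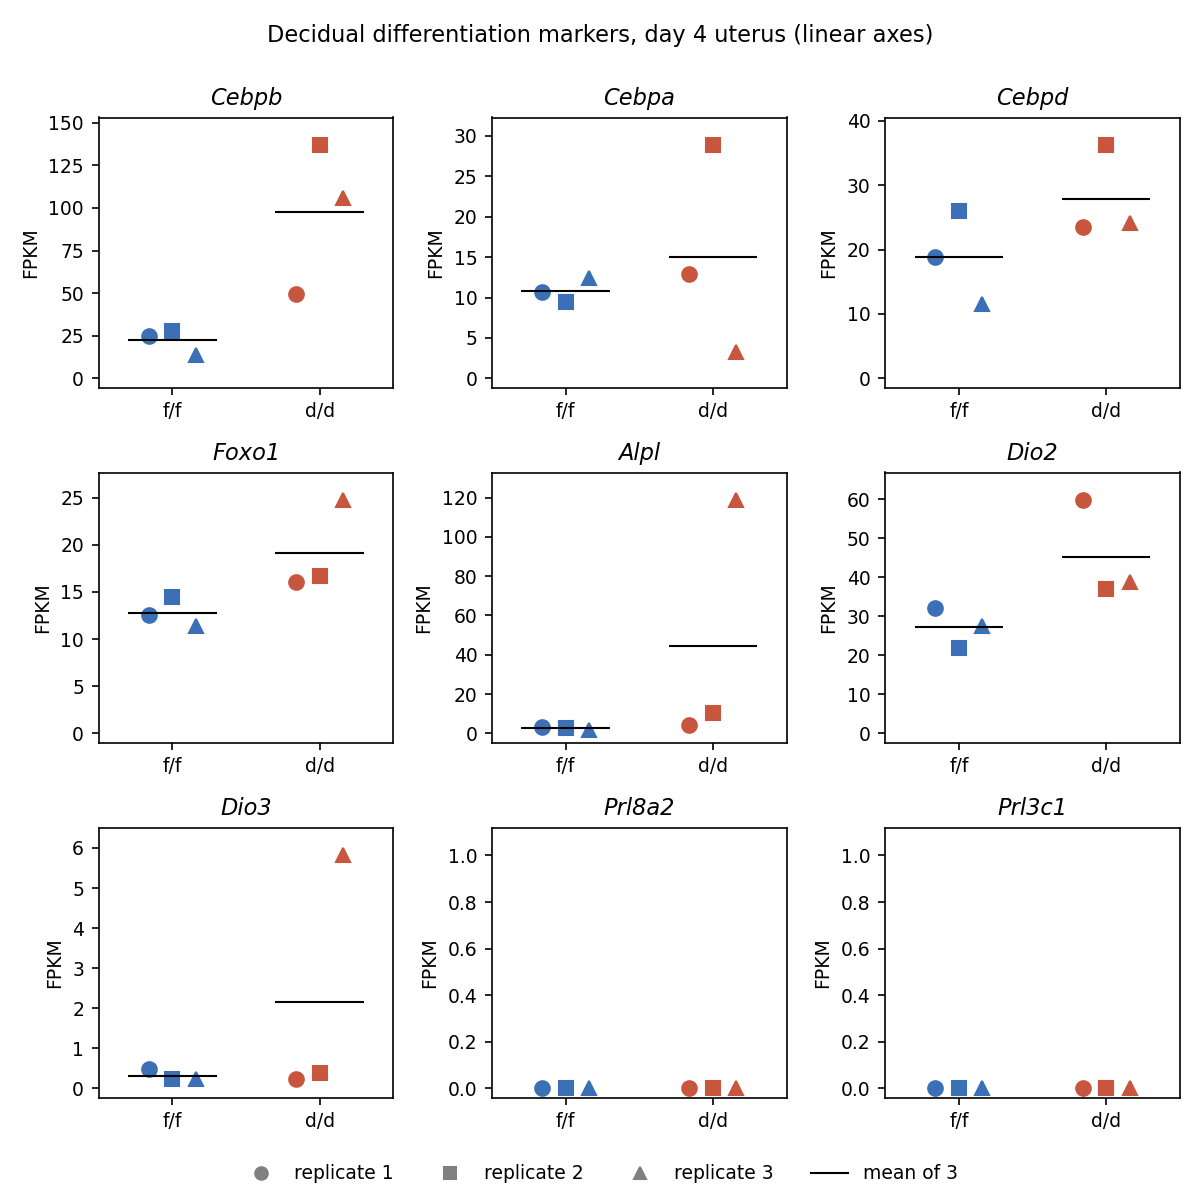
FPKM of each of the 9 genes (vertical axes, linear, a separate scale per gene) in the 3 f/f libraries (blue) and the 3 d/d libraries (red), with symbols for the replicate numbers and a line at the mean of 3. Cebpb is higher in every d/d library than in every f/f library, Alpl and Dio3 are far higher in d/d replicate 3 (118.5 and 5.81 FPKM) than elsewhere, and Prl8a2 and Prl3c1 lie at 0 throughout.

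Cebpb encodes C/EBP beta, a basic leucine zipper factor that progesterone and estrogen induce in the uterus and that stromal cells need in order to decidualize. It lies on chromosome 2, 167688915 to 167690418, plus strand (ENSMUSG00000056501, protein coding, GENCODE vM21 on GRCm38). The f/f libraries gave 24.8, 28.1 and 13.9 FPKM, and the d/d libraries 49.4, 136.7 and 106.1 FPKM. Every d/d library was above every f/f library, and d/d replicate 1 was the lowest of the d/d group. The means were 22.3 ± 7.41 and 97.4 ± 44.3 FPKM (SD, n = 3 each). The log2 fold change was 2.02 with an SE of 0.43 and a 95% interval of 0.98 to 3.06, and passed the test (limma adjusted p = 0.0454). The exact permutation p (two-sided) was 0.1, which is the minimum with 3 libraries on each side.

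The call for Cebpb was lost in 5 of the 6 fits that left out a library. The limma adjusted p was 0.154, 0.137 and 0.144 without f/f replicates 1, 2 and 3, and 0.0614 and 0.0853 without d/d replicates 2 and 3, while it was 0.0201 without d/d replicate 1. It was also lost when the genotypes were allowed different spreads (adjusted p = 0.0627), without a filter on low values (0.0696) and with the replicate number as a block (0.0885). Calls over all genes tested also fell without an f/f library, from 453 higher and 494 lower with all libraries. They were 0 and 0 without f/f replicate 1, 6 and 24 without replicate 2, and 50 and 61 without replicate 3. The log2 fold change of Cebpb stayed between 1.71 and 2.44 over all 13 alternatives. The gene shares 312 bases of exon with Tmem189 on the opposite strand, and use of strand is not stated. Tmem189 was at 32.9 to 36.2 FPKM in f/f and at 44.8, 40.7 and 63.1 FPKM for d/d (limma adjusted p = 0.168), so its groups did not overlap either, and the part of its fragments in the Cebpb values was not tested.

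The promoter of Cebpb is shown because this gene alone among the members passed the test, and that of Prl3c1 because Prl3c1 was listed at 0 throughout and its window has another base composition. Both run from 250 bases before to 50 bases after the transcription start in RefSeq (GRCm38.p6), 5′ to 3′ on the strand of the gene, at chr2:167688665-167688964 (plus strand) and chr13:27196410-27196709 (plus strand). Capitals mark CG pairs.
Cebpb: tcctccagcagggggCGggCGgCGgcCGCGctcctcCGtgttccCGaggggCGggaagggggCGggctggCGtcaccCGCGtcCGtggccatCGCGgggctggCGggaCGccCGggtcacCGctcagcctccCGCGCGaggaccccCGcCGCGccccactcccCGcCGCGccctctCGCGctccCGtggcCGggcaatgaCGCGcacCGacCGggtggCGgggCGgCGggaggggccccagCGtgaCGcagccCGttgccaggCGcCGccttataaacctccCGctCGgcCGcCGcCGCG
Prl3c1: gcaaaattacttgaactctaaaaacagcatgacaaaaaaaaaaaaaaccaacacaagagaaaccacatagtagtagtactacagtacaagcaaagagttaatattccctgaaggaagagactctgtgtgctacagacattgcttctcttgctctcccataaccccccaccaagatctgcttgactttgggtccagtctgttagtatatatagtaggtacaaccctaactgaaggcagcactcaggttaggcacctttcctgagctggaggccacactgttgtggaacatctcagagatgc
The Cebpb window held 50 CG pairs and was 80.7% G and C, above 99.2% of 32851 promoters of the same length. The Prl3c1 window held 0 CG pairs and was 42.7% G and C. A further Prl3c1 start, used in another RefSeq transcript, had 1 CG pair. Over all promoters the median was 7 CG pairs and 52.7% G and C.

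RefSeq promoters were found for 7 of the 9 members, 9 windows in all, and were searched on both strands for a C/EBP pattern (TTGCNNAA) and a FoxO pattern (GTAAACA), and no matches of the patterns overlapped. The C/EBP pattern occurred in 1 of the 9 windows, that of Dio2, and in 10.8% of all promoters. The FoxO pattern occurred in 0 of the 9 and in 3.65% of all promoters. A match of letters is a description and not a binding site. Another sequence count concerned GGACT, the commonest form of the sequence in which the Mettl3 complex methylates RNA. The longest protein-coding transcript of Cebpb in GENCODE vM21 held 4 in 1504 bases, 2.66 per kilobase, which was above 96.0% of 12929 tested genes (median 1.06). Cebpa, Cebpd, Dio2, Dio3 and Foxo1 had 1.20 to 1.52 per kilobase, Alpl 0.793, and Prl8a2 and Prl3c1 had 0 copies. RNA methylation was not measured in these libraries.

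The other C/EBP members did not pass the test. Cebpa, whose product holds back proliferation in many differentiating cells (chromosome 7, 35119293 to 35121928, plus strand), gave 10.6, 9.44 and 12.4 FPKM for f/f and 13.0, 28.8 and 3.23 FPKM for d/d libraries. The f/f values were close together, whereas d/d replicate 2 was the highest and d/d replicate 3 the lowest of all 6 libraries. Its log2 fold change was 0.04 with a wide 95% interval of -1.58 to 1.65 (SE 0.67, limma adjusted p = 0.977), and the sign turned under several alternatives, to -0.61 without d/d replicate 2. The value without d/d replicate 3 was 0.80.

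Cebpd encodes C/EBP delta, a member of the family induced in acute-phase and cytokine responses (chromosome 16, 15887286 to 15891031, plus strand). Its level was 18.9, 26.0 and 11.6 FPKM for the f/f libraries and 23.5, 36.2 and 24.1 FPKM in the d/d libraries. The groups overlapped, since f/f replicate 2 was above d/d replicates 1 and 3. The fitted log2 difference was 0.58 with a 95% interval of -0.18 to 1.34 (SE 0.31, limma adjusted p = 0.289), an interval that holds both no change and more than a doubling. Cebpd shares 562 bases of exon with Spidr on the opposite strand, which was at 4.18 to 4.36 FPKM in f/f and 4.47 to 6.48 in d/d libraries. In the f/f libraries Cebpb was above Cebpd in 3 of 3, although the ranges of these genes overlapped.

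**Figure D2:**
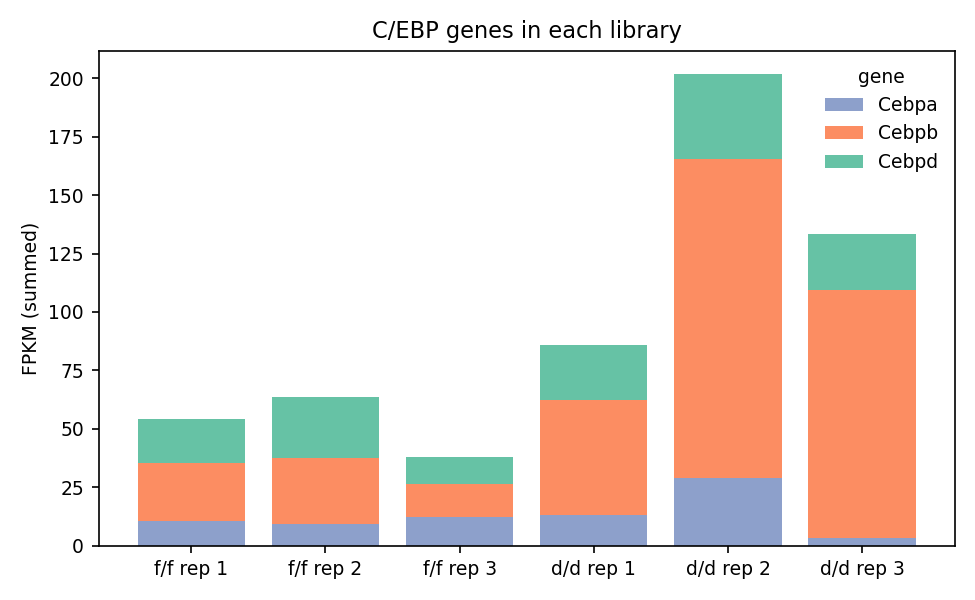
FPKM of Cebpa, Cebpb and Cebpd stacked for each library (vertical axis, FPKM, from 0). The summed level is 37.9 to 63.5 FPKM in the f/f libraries and 85.9 to 201.7 in the d/d libraries, and most of the difference lies in the Cebpb segment.

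Per length, Cebpb made up a larger part of the C/EBP members in every d/d library than in any f/f library. The summed FPKM of the C/EBP members was 54.3, 63.5 and 37.9 for f/f and 85.9, 201.7 and 133.4 for d/d libraries. Cebpb made up 45.7%, 44.2% and 36.7% of it in the f/f libraries and 57.5%, 67.8% and 79.5% in the d/d libraries. Cebpd made up 30.6% to 41.0% in f/f and 17.9% to 27.4% in d/d libraries. Cebpa made up 14.9% to 32.6% in f/f libraries and 15.1%, 14.3% and 2.42% of the sum for d/d. These shares were computed after the levels were seen and carry no test.

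Among the genes listed for comparison with these factors, by family or by name, 5 of 7 passed the filter and 0 were called higher or lower. Cebpg, a broadly expressed C/EBP gene, was at 14.9 to 17.2 FPKM in f/f and 17.1 to 21.6 in d/d libraries. Cebpz, listed for its name, was at 14.1 to 18.6 FPKM in f/f and 14.5 to 15.5 in d/d libraries. Cebpe, a granulocyte factor gene, had values above 0 only in d/d replicates 2 and 3 (0.286 and 0.0598 FPKM).

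Foxo1 encodes a forkhead factor that is held in the cytoplasm by insulin signalling and that works together with C/EBP beta and the progesterone receptor on decidual promoters. It lies on chromosome 3, 52268336 to 52353221, plus strand. Its level was 12.5, 14.5 and 11.4 FPKM for f/f and 16.02, 16.7 and 24.7 FPKM for d/d libraries. The groups did not overlap, and d/d replicate 3 was the highest. The log2 fold change of 0.53 (SE 0.20, 95% interval 0.04 to 1.01) did not pass over all genes (limma adjusted p = 0.159, exact permutation p = 0.1). In the same family, Foxo3 was at 11.4 to 13.9 FPKM in f/f and 14.1 to 20.5 in d/d libraries (log2 fold change 0.48, adjusted p = 0.148). Foxo4 was at 13.4 to 14.2 and 6.99 to 11.6 FPKM (log2 fold change -0.54, adjusted p = 0.138). Neither passed, and their fold changes had opposite signs.

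Alpl encodes tissue-nonspecific alkaline phosphatase, an enzyme at the cell surface that frees phosphate (chromosome 4, 137741733 to 137796384, minus strand). The f/f libraries gave 3.10, 2.93 and 1.89 FPKM, and the d/d libraries 4.34, 10.2 and 118.5 FPKM. All d/d values were above all f/f values, but the d/d libraries were far apart: d/d replicate 3 was at 44.9 times the f/f mean and d/d replicate 1 at 1.64 times. The fitted log2 difference was 2.42 with a 95% interval of -0.21 to 5.06 (SE 1.09; limma adjusted p = 0.220; by exact permutation, p = 0.1), the largest among the tested members. Without d/d replicate 3 it was 1.11 (adjusted p = 0.122), and without d/d replicate 1 it was 3.35 (adjusted p = 0.0973).

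Alpl has more than 1 transcription start in RefSeq, and its windows are shown because a value over the whole gene does not say which start was used. They lie at chr4:137796335-137796634 and chr4:137766426-137766725 (minus strand, GRCm38.p6), with CG pairs in capitals.
Alpl, upstream start: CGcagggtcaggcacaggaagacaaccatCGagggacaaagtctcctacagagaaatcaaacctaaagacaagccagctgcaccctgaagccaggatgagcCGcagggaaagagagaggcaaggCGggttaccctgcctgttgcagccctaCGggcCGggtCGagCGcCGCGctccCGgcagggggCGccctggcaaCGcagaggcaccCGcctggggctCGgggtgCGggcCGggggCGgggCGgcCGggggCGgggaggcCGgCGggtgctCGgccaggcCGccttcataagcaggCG
Alpl, downstream start: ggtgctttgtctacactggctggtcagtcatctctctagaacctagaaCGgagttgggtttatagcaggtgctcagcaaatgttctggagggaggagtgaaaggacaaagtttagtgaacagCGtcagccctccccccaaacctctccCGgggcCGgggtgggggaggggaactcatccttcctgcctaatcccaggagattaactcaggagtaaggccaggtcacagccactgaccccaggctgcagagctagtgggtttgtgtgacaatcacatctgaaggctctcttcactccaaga
The upstream window held 26 CG pairs and was 70.0% G and C, the downstream window 4 and 54.3%. Other alkaline phosphatase genes were at or near 0: the intestinal gene Alpi and Akp3 in all 6 libraries, and Alppl2 in all but f/f replicates 2 and 3 (0.0314 and 0.0629 FPKM). Of the phosphate handling genes, Phospho1, a phosphatase gene of mineralizing tissue, was at 17.1 FPKM in d/d replicate 2 and at 1.25 to 2.79 in the other libraries (adjusted p = 0.613). Enpp1, which makes the pyrophosphate that Alpl cleaves, was at 5.21 to 6.69 FPKM in f/f and 6.10, 2.47 and 0.882 for d/d (log2 fold change -0.97, adjusted p = 0.245). Of 8 genes in this list, 5 passed the filter and 0 were called.

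Dio2, which encodes the type 2 deiodinase that makes active thyroid hormone inside cells (chromosome 12, 90724552 to 90738438, minus strand), was among the most expressed members. Its level was 32.2, 21.9 and 27.5 FPKM for f/f and 59.7, 37.1 and 38.7 FPKM in the d/d libraries. The groups did not overlap, and d/d replicate 1, the lowest d/d library for Cebpb, was the highest for Dio2. The means were 27.2 ± 5.12 and 45.2 ± 12.6 FPKM (SD, n = 3 each). The log2 fold change of 0.69, with an SE of 0.23 and a 95% interval of 0.13 to 1.26, did not pass (limma adjusted p = 0.121, exact permutation p = 0.1). Its promoter is shown as the window with the C/EBP pattern, in capitals, read on the opposite strand and starting 82 bases before the RefSeq start (GRCm38.p6, chr12:90738989-90739288, minus strand).
Dio2: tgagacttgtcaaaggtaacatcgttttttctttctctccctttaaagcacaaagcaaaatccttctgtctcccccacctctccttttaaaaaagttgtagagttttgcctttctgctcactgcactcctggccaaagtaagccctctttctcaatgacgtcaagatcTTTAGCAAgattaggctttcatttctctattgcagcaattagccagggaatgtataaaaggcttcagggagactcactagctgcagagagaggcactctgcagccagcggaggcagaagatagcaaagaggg
This window held 3 CG pairs and was 44.7% G and C. It lies wholly upstream of the GENCODE bounds of Dio2, which end at 90738438, so the RefSeq and GENCODE starts differ.

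Dio3, the imprinted gene of the inactivating type 3 deiodinase (chromosome 12, 110279068 to 110281097, plus strand), gave 0.471, 0.230 and 0.229 FPKM for f/f and 0.231, 0.386 and 5.81 FPKM for d/d libraries. Of these, d/d replicates 1 and 2 lay within the f/f range, and d/d replicate 3 was at 18.8 times the f/f mean. The exact permutation p (two-sided) for Dio3 was 0.5. The same library, d/d replicate 3, held the highest values of Alpl, Dio3 and Foxo1 and the lowest of Cebpa. The ratio of Dio2 to Dio3 was 68.4 to 119.9 for f/f and 258, 96.1 and 6.67 for d/d libraries.

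Other genes of thyroid hormone handling showed 1 call among the 9 of 12 listed that passed the filter, against 7.3% over all genes tested. It was Ttr, the transthyretin gene, a carrier of thyroid hormone and retinol, with 1.89, 4.70 and 6.94 FPKM for f/f; among d/d libraries only replicate 1 was above 0, with 0.118 FPKM (limma adjusted p = 0.0258). Ttr met the filter only through the f/f libraries, where it is high, and its call was lost without any 1 of the f/f libraries, with genotype array weights and with the replicate block. Klf9, a target gene of the thyroid hormone and progesterone receptors, was at 30.6 to 31.3 FPKM for f/f and 14.3, 18.2 and 7.23 in d/d libraries (log2 fold change -1.25, adjusted p = 0.0645). The receptor gene Thra was at 36.7 to 40.3 and 27.5 to 33.0 FPKM (adjusted p = 0.160), and Rxra, its partner, at 15.8 to 17.3 and 19.7 to 22.2 (adjusted p = 0.135). Dio1, named outside the rule as the remaining deiodinase gene, gave 0, 0 and 1.22 FPKM for f/f and 1.32, 0.0396 and 0.327 FPKM for d/d libraries.

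Prl8a2, the decidual prolactin-related protein gene (chromosome 13, 27345673 to 27354216, plus strand), was listed at 0 in all f/f and all d/d libraries. Prl3c1 (chromosome 13, 27196659 to 27203749, plus strand) was listed at 0 in the same 6 libraries. A 0 in these files can be a failed estimate, because Kif11, a gene of dividing cells, is also at 0 in all 6, and 4161 genes (19.0%) are. Of 23 further genes of the prolactin family, 20 were listed at 0 in all 6 libraries and 0 passed the filter. The exceptions were Prl6a1, with 0.475 FPKM in d/d replicate 3 as its highest value, Prl2a1 (0.0887 in d/d replicate 2) and Prl7a2 (0.0536 in f/f replicate 2), named after their values were seen. Of 6 trophoblast markers, 4 (Prl3d1, Gcm1, Hand1 and Cdx2) were at 0 in all 6 libraries, and Tpbpa was at or near 0. The other, Ascl2, was at 0.288, 0.667 and 0.449 FPKM for f/f and higher in every d/d library, at 1.52, 1.73 and 1.45 (log2 fold change 0.81, limma adjusted p = 0.0501). Ascl2 met the filter only through the d/d libraries, where it is high, and was not called. Igfbp1, a classical secreted marker of the human decidua, was above 0 only in f/f replicate 1 (0.0436 FPKM). Prlr, the prolactin receptor gene, was at 0.431, 0.739 and 0.504 FPKM in the f/f libraries and at 0.251, 4.06 and 2.15 in the d/d libraries (exact permutation p = 0.4). Igfbp1 and Prlr did not pass the filter and are named outside the rule.

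Genes of the wider decidual programme were called in both directions. Of 25 listed genes 20 passed the filter, 2 were higher, 4 were lower and 14 were not called. Over all genes tested, 3.49% were called higher and 3.81% lower. The median log2 fold change of the list was -0.27 against 0.02 over all genes tested. This list, like the others, was chosen with earlier results of these data known. Wnt4, a ligand gene of the stroma that acts downstream of Bmp2 in decidualization, gave 2.06, 1.26 and 0.849 FPKM for f/f and 24.4, 20.1 and 7.90 in the d/d libraries (log2 fold change 2.85, limma adjusted p = 0.0227). Bmp2 itself was at 1.74 to 2.65 FPKM for f/f and 1.41, 2.71 and 0.944 in d/d libraries (log2 fold change -0.31, adjusted p = 0.516). Unlike Cebpb, Wnt4 had its lowest d/d value in replicate 3.

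The homeobox genes that stromal cells need for decidualization fell, with no overlap between the groups. Hoxa10 was at 279, 235 and 243 FPKM in the f/f libraries and at 56.4, 66.6 and 45.3 in the d/d libraries (log2 fold change -2.16, limma adjusted p = 0.00608). Hoxa11 gave 135.9, 131 and 138 FPKM for f/f and 26.9, 39.7 and 21.0 for d/d libraries (log2 fold change -2.22, adjusted p = 0.00887). Hand2, a stromal factor gene under progesterone control, gave 65.9, 57.8 and 53.8 FPKM for f/f and 24.2, 19.0 and 11.1 in d/d libraries (log2 fold change -1.71, adjusted p = 0.0250). The remaining calls, named after their values were seen, were the cell cycle inhibitor gene Cdkn1a, higher by 1.62 on the log2 scale, and the co-chaperone gene Fkbp5, which fell by 1.23. Leaving out f/f replicate 1 ended all calls in this list, and leaving out f/f replicate 2 or 3 left Hoxa10 only.

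**Figure D3:**
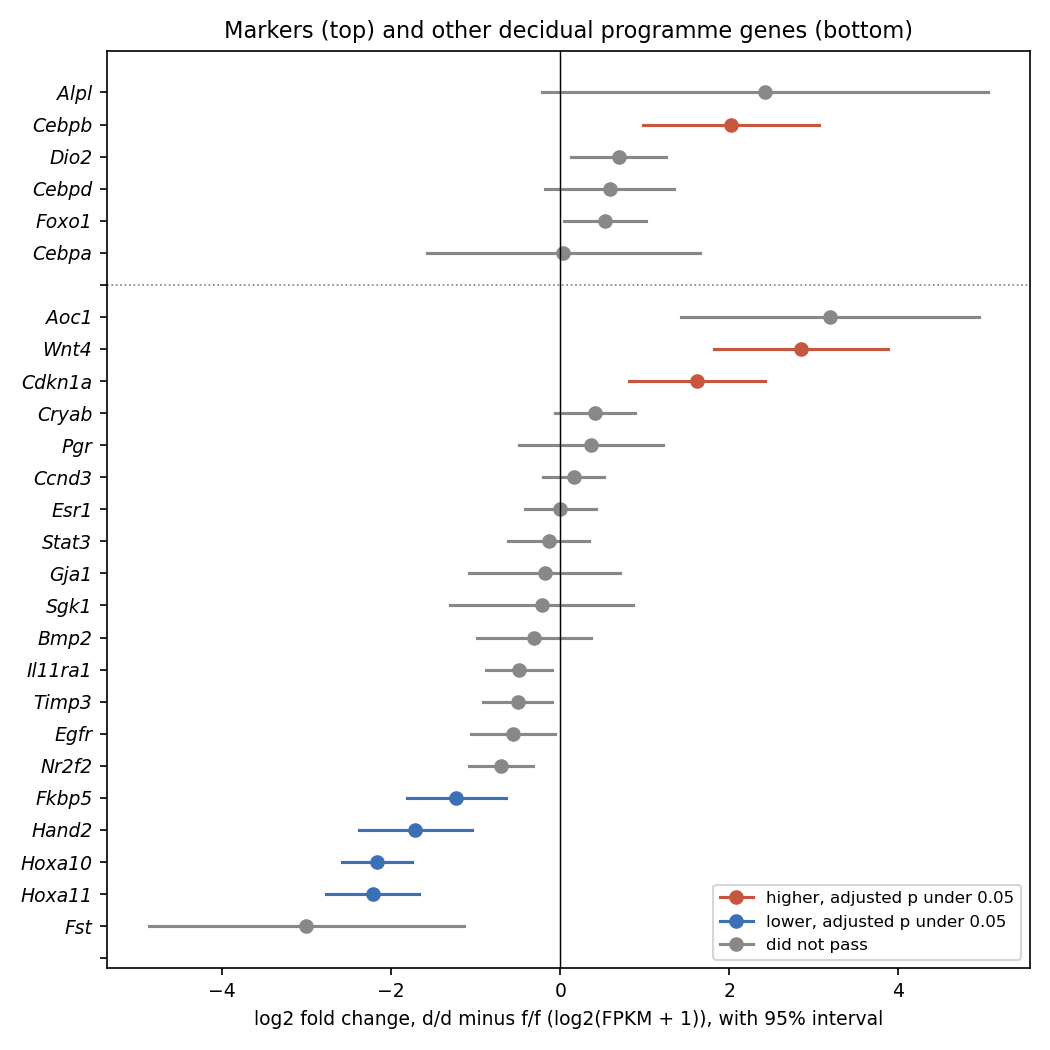
Log2 fold changes (d/d minus f/f, on log2(FPKM + 1)) with 95% intervals for the 6 tested markers (top) and the 20 tested genes of the wider decidual programme (bottom). Cebpb, Wnt4 and Cdkn1a are drawn as higher, Fkbp5, Hand2, Hoxa10 and Hoxa11 as lower, and the interval of Alpl is the widest among the markers.

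Ranked by level, the members did not keep their order between the groups. In f/f libraries the means ran from Dio2 (27.2 FPKM) through Cebpb (22.3), Cebpd (18.8), Foxo1 (12.8) and Cebpa (10.8) to Alpl (2.64) and Dio3 (0.310). Each gene from Dio2 to Cebpa overlapped with the next in its f/f values, while Alpl lay below Cebpa and Dio3 below Alpl in all 3 libraries. In the d/d libraries the highest member was Dio2 in replicate 1, Cebpb in replicate 2 and Alpl in replicate 3. Alpl ranked the sixth of the 7 detected members in the other 5 libraries. In total, 4 of the 6 tested members (Cebpb, Alpl, Dio2 and Foxo1) had all d/d values above all f/f values, a pattern that 18.1% of all genes tested showed, and 0 of the 6 the reverse, against 17.8%. Unadjusted limma p-values were under 0.05 for 3 of the 6 (Cebpb, Dio2 and Foxo1) and for 26.7% of all genes tested.

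Markers of other cell types differed between the d/d libraries. All 6 macrophage markers (Adgre1, Cd68, Csf1r, Mrc1, Itgam and Aif1) were detected in every library, and their summed level was 63.5 to 95.3 FPKM in f/f libraries and 247, 813 and 175 FPKM for d/d. Of these, Cd68 was called higher. The 7 neutrophil markers summed to 5.03 to 10.6 FPKM in f/f libraries and to 27.7, 1081 and 28.2 for d/d, with Elane at 0 in all 6, Mpo at 0 in d/d replicate 1 and S100a9 at 0 in d/d replicate 3. S100a8 and S100a9 (406 and 560 FPKM) made up most of the sum in d/d replicate 2, while Ly6g (3.59, 5.80 and 24.96 FPKM for d/d) and Mpo (0, 0.284 and 1.63) were highest in d/d replicate 3. Cebpb, Cebpa and Cebpd had their highest values in d/d replicate 2, where the macrophage and neutrophil sums were highest. The stromal and lymphocyte marker sums (4265 and 85.9 FPKM) were also highest in that library. In d/d replicates 1 and 3 Cebpb was at 49.4 and 106.1 FPKM. The macrophage sums there were 247 and 175 FPKM, and the neutrophil sums 27.7 and 28.2. C/EBP genes are active in myeloid cells as well as in stroma. The part of any of these cell types in the C/EBP levels was not tested. With d/d replicate 2 left out, Cebpb had a log2 fold change of 1.71 and Cebpd of 0.39.

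The 8 epithelial markers, all detected in every library, summed to 1101 to 1308 FPKM in f/f libraries and to 1807, 741 and 2481 FPKM for d/d. Epcam and Krt7 were called higher, but the list did not move as a whole, with 6 positive and 2 negative log2 fold changes. Cldn3 was below every f/f value in all d/d libraries (433 to 483 FPKM for f/f and 390, 76.3 and 294.5 for d/d). Krt18 had a log2 fold change of -0.05. Alpl, Dio3 and Foxo1 were highest in d/d replicate 3, the library with the highest epithelial sum. The smooth muscle markers summed to 2349 to 5740 FPKM in f/f libraries and to 1028, 1961 and 4648 for d/d, also highest in replicate 3 among d/d libraries. The part of epithelial or smooth muscle RNA in the Alpl, Dio3 and Foxo1 values was not tested. The 5 gland markers summed to 51.8 to 76.8 FPKM in f/f libraries and to 67.07, 12.15 and 2.46 for d/d. The gland sum of d/d replicate 1 was thus within the f/f range. Wfdc3 was called lower, while Cxcl15 was at 15.5 to 34.6 FPKM in f/f and 49.1, 7.87 and 0 for d/d. The 8 stromal markers, all detected, summed to 2769 to 3098 FPKM in f/f and to 1759, 4265 and 3307 for d/d. Of the stromal markers 0 were called, and their log2 fold changes were positive for 4 and negative for 4. Pdgfra and Vim were below every f/f value in all d/d libraries. Lum and Dcn went the other way (log2 fold changes 0.98 and 0.62), with overlap between the groups. All 6 endothelial markers had a negative log2 fold change, 5 of them without overlap between the groups, and Cdh5 was called lower. Of all genes tested, 17.8% had every d/d value below every f/f value, and 3.81% were called lower. The 6 adipocyte markers summed to 0.0217 to 8.28 FPKM in f/f libraries and to 176, 13.1 and 0.299 for d/d. Dio2 and the adipocyte sum were both highest in d/d replicate 1, and the part of fat cells in the Dio2 values was not tested.

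**Figure D4:**
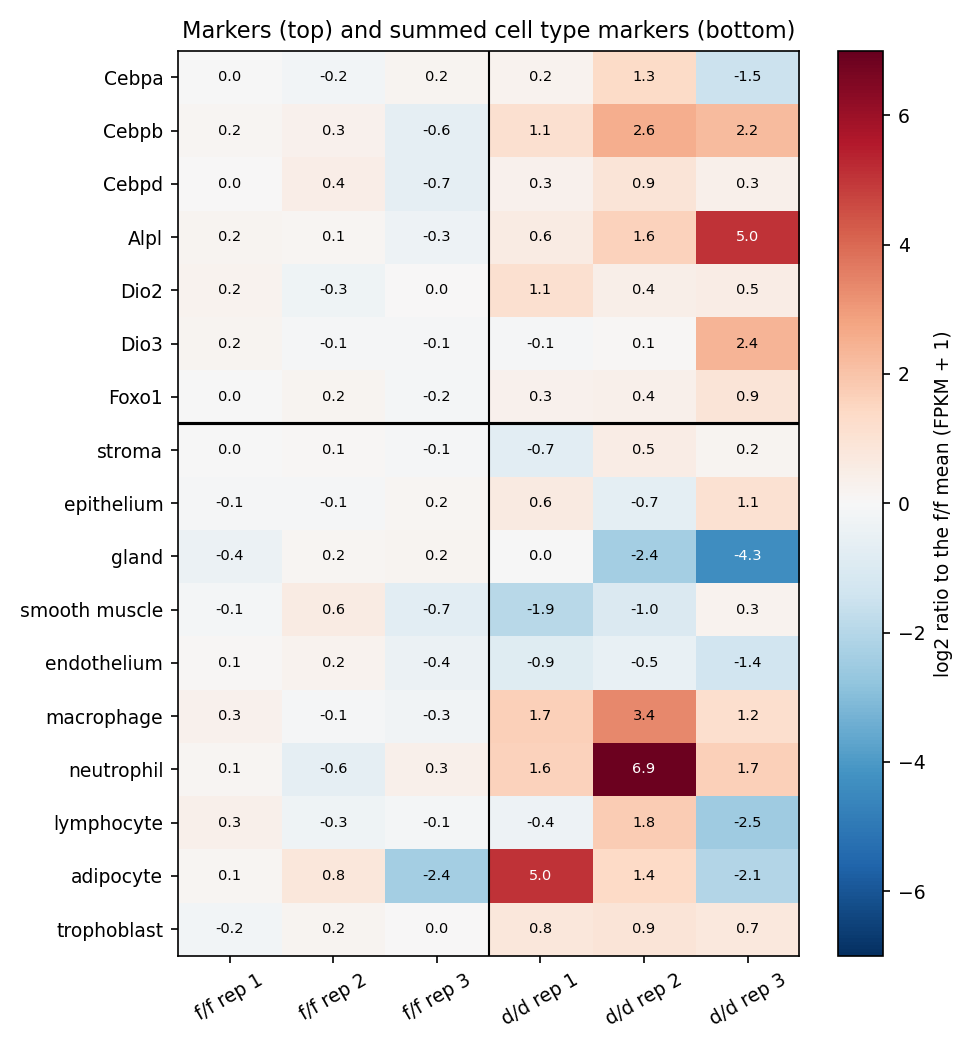
Log2 ratio of FPKM + 1 to the f/f mean (color, from blue for lower to red for higher, value in each cell) for the 7 detected markers (top) and for summed cell type marker lists (bottom) in the 6 libraries (columns). The d/d libraries differ from one another. The macrophage, neutrophil, lymphocyte and stromal sums and Cebpb are highest in d/d replicate 2. Alpl, Dio3 and the epithelial sum are highest in d/d replicate 3, and the adipocyte sum and Dio2 in d/d replicate 1.

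The genes whose profile over the 6 libraries was closest to each member were taken by the root mean square difference of log2(FPKM + 1), after the f/f mean of each gene was set to 0. For Cebpb the closest was Pim1, a kinase gene induced by cytokines (0.12), with 11.3, 11.9 and 6.79 FPKM in f/f and 20.3, 58.4 and 48.5 FPKM in d/d libraries, followed by the leukotriene gene Alox5ap (0.29) and the integrin gene Itga2 (0.30). For Cebpd they were Jak3 (0.10), Lmo2 (0.10) and Insl3 (0.13), and for Foxo1 they were Chmp4b (0.05), Clptm1l (0.06) and Grpel1 (0.07). Those of Dio2 were Zfp995 (0.09), Mboat1 (0.12) and Ell3 (0.13), and those of Cebpa were Rragd (0.16), Tnni3 (0.21) and Grina (0.23). The profile of Alpl had more distant neighbours, among them Chst8 (0.43) and Oxtr (0.47), the oxytocin receptor gene. Oxtr was at 1.15 to 1.70 FPKM in f/f libraries and at 4.84, 5.49 and 45.2 FPKM for d/d. These are descriptions over 6 libraries, chosen for their likeness, and carry no test.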

How the data were processed

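RNA-seq of 6 whole uteri libraries (3 Mettl3 f/f, 3 Mettl3 d/d) was used as deposited. The tools named by the submitters' processing notes are HISAT2 2.2.1 and Cufflinks 2.2.1, with mm9 and mm10 as builds. Which build served for what, the annotation and the handling of strand: not given in the sources used here. The values the authors deposited, 1 per gene and library for 21936 genes, were taken as FPKM. The headers name no unit, and the values are decimals whose totals differ, so other length-scaled or estimated units cannot be told apart from FPKM. Gapdh was listed at only 2.63 to 9.48; the cause was not tested.

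From these values, 36 rows that shared a symbol with a higher row were dropped, genes at 1 FPKM in at least 3 libraries were kept, and log2(FPKM + 1) was fitted with limma 3.58.1 in R 4.3.3 (genotype only, intensity trend, two-sided). Fold changes on this scale understate those of low genes. The scripts were tested on simulated data. Of 21900 genes, 21791 IDs were found in GENCODE vM21 (GRCm38), used for positions. Relative depth is the most frequent ratio of values under 0.3 FPKM. Members, lists and tests were chosen with earlier results of these data known. Named were all members, Mettl3, up to 4 tested genes per supporting list by unadjusted p, and the 3 closest profiles per tested member. Of the genes this rule names, 1 is not reported here. Some genes listed as markers of cell types are given as sums.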

Additional observations from a re-analysis of the deposited data

How the results depend on the processing

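Results were recomputed under 13 alternatives. Cebpd, Alpl, Dio2 and Foxo1 kept a positive log2 fold change and did not pass under any of them (0.29 to 0.84, 1.11 to 3.35, 0.48 to 0.82 and 0.34 to 0.63). The log2 fold change of Cebpb was 2.02 without a filter on low values (adjusted p = 0.0696), with genotype array weights (0.0627) and with the replicate block (0.0885), where the call was lost, and 1.71 to 2.44 with a library left out. In the same 3 settings 0 members were called higher, and 0 to 1 with a library left out. That of Cebpa turned from 0.04 to -0.0088 with a pseudocount of 0.1 and to -0.015 with equal library medians, and ran from -0.61 to 0.80 with a library left out. With limma 0 members were called lower in any setting, and 0 were lower at an unadjusted p under 0.05 with all libraries.

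Without a filter 291 of all genes were called higher and 1 of the supporting list genes. With a library left out, 0 to 729 of all genes were called higher and 0 to 748 lower, and 0 to 4 and 0 to 7 of the list genes, with the lowest counts always without an f/f library. With the replicate block, 51 of all genes were called higher and 49 lower, and 1 and 2 of the list genes. Same-numbered libraries did not deviate together (correlations -0.02, 0.02 and -0.02), and no library correlated best with its own number. With 3 libraries per genotype and d/d libraries that vary widely, these correlations cannot decide whether same-numbered libraries share a batch. The labels name no batch. The cause of the changes in the counts of calls was not tested. The absolute depth is unknown, so no counting error could be given for Dio3 and other low genes.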
